A study of Mus musculus with 8 samples.

Results

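Caveolae are small flask-shaped pits of the plasma membrane, and the genes described here build them or mark the endothelial surface that holds them. The group holds 9 mouse genes: the caveolins Cav1, Cav2 and Cav3, the cavins Ptrf (now Cavin1), Sdpr (Cavin2) and Prkcdbp (Cavin3), the fenestra diaphragm protein Plvap, the water channel Aqp1 and the endothelial nitric oxide synthase Nos3. Members were taken by name: every non-control probe whose gene name on the array equals 1 of these symbols or its cavin alias, and no measured value was used. This gave 15 probes of 41174 on the array, and 9 of its 27745 gene names. RNA from whole hearts of male mice aged 12 weeks was measured, with 4 wild-type (WT) mice and 4 mice overexpressing PKR2, each on its own 1-colour array. PKR2 is read here as prokineticin receptor 2 (Prokr2), a G protein-coupled receptor. The strain, and the promoter and cell type that drive the overexpression, are not given in the sources used here. The array's Prokr2 probe did not rise well above background on a single array of either group, and so gives no check of the labels.

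A caveola forms when caveolins, hairpin proteins that bind cholesterol, assemble in the membrane and cavins coat the pit from the cytosolic side. Cav1 and Cav2 are found in endothelial cells, fat cells, fibroblasts and smooth muscle, and Cav3 is the muscle caveolin. In the heart, the capillary endothelium is rich in caveolae, where Cav1 binds the nitric oxide synthase Nos3 and holds its activity down. Plvap forms the diaphragms that span endothelial caveolae and fenestrae, the pores of permeable capillaries.

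The promoters of the caveolins and of the coat gene Ptrf are shown because these 4 genes make the caveola itself. They are the 250 bases before a transcription start, from RefSeq on build GRCm38.p6, which gave an entry for 6 of the 9 members. For Cav1 and for Cavin1 the table lists 2 starts each, and the first listed is shown. The 4 lie at chr6:17306085-17306334 (Cav1, plus strand), chr6:17280935-17281184 (Cav2, plus strand), chr6:112459255-112459504 (Cav3, plus strand) and chr11:100970618-100970867 (Cavin1, minus strand). Each reads 5′ to 3′ on the gene's own strand. Capitals mark, on either strand, the GC box GGGCGG (reverse CCGCCC), the CCAAT box CCAAT (reverse ATTGG) and the TATA box TATAAA (reverse TTTATA), and no marked motif overlaps another.
Cav1: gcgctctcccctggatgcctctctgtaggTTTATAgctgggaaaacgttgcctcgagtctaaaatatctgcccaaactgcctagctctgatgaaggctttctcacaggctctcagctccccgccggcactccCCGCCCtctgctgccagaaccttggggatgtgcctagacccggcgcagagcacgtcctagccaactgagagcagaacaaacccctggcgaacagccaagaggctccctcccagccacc
Cav2: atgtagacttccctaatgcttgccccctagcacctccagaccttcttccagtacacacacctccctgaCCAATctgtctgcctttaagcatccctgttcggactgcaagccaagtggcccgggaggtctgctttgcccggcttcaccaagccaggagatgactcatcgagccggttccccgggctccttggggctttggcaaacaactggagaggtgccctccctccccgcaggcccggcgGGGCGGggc
Cav3: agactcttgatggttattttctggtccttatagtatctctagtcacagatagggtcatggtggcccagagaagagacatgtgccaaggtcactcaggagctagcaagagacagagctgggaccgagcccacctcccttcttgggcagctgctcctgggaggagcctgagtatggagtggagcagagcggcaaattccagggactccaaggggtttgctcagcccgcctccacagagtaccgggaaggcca
Cavin1: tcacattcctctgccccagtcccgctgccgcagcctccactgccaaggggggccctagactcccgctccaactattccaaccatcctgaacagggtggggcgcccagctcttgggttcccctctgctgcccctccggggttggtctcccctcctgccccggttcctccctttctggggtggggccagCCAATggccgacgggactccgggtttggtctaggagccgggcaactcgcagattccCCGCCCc
The Cav1 window held 1 GC box and 1 TATA box, both read on the reverse strand, and the Cav2 and Cavin1 windows each held 1 GC box and 1 CCAAT box. No searched motif was found in the Cav3 window. Among 27025 mouse promoters of the same length, 33.0% held the GC box, 34.5% the CCAAT box and 13.0% the TATA box. GC content was 59.6% for Cav1, 62% for Cav2, 56% for Cav3 and 67.6% for Cavin1. These matches describe the letters in the windows, and no binding was measured.

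Signals are given as levels: the log2 of the processed signal minus the array's own 75th percentile, so that 0 is that percentile. Differences are PKR2 minus WT on the log2 scale with limma's standard error, groups are mean ± SD with n = 4, and values are listed in the order of replicates 1 to 4, whose numbers are names only. No difference of any member passed the test (limma, Benjamini-Hochberg adjusted p under 0.05 over 22715 tested probes). Each of the 12 tested member probes had an adjusted p of 0.9997. Among them, Ptrf A_52_P560022 entered the test through PKR2 alone, so its place in the counts of 12 is a description. The share of all tested probes called was 0%, so the members' count of 0 equals the background. At an unadjusted limma p under 0.05, 586 of the 22715 probes (2.58%) and 0 of the members' 12 differed, and the 2.58% were made of 1.39% higher and 1.19% lower in PKR2. Groups that did not overlap were found for 1.83% of all tested probes (1.06% higher and 0.77% lower in PKR2) and for 0 of the members' 12. In whole-heart RNA, fewer cells of a type and less RNA per cell cannot be told apart.

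**Figure D1:**
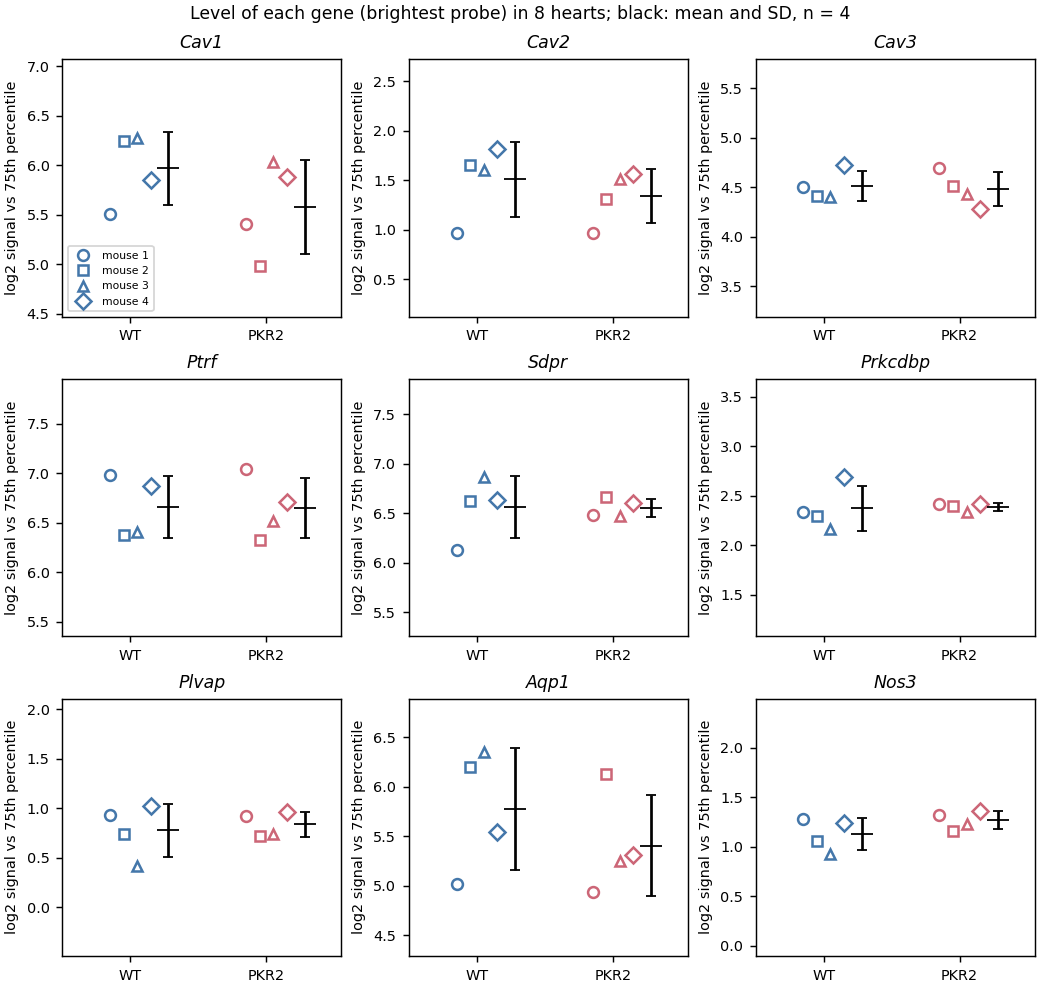
Level of the brightest probe of each of the 9 genes on every array, in log2 relative to the array's 75th percentile, by group, with the group mean and SD (n = 4). The WT and PKR2 points of every gene overlap, and Cav1 and Aqp1 are spread over the widest range.

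Cav1, the main caveolin of endothelial cells, had 2 tested probes, and they ranked the hearts differently. The brighter probe (A_52_P306845, chr6:17291169-17291228, plus strand, mm8) read 5.51, 6.25, 6.28 and 5.85 in WT and 5.41, 4.99, 6.03 and 5.88 in PKR2 hearts. WT 2 and WT 3 were highest and PKR2 2 was lowest, but PKR2 3 and PKR2 4 stood above WT 1 and WT 4, so the groups overlapped. The means were 5.97 ± 0.37 in WT and 5.58 ± 0.47 in PKR2, a difference of -0.39 (SE 0.27, 95% interval -0.99 to 0.21), which missed the threshold (limma adjusted p = 0.9997, two-sided exact permutation p = 0.257). As a ratio this is 0.762, with an interval of 0.502 to 1.15. On the slides that carried both groups the difference was -0.25 (slide 5) and 0.032 (slide 6), 1 pair of arrays each.

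The other tested Cav1 probe (A_51_P107302, chr6:17289197-17289256, plus strand, mm8) lies 1972 bases upstream of the first. It read 0.73, 0.21, 0.08 and 0.60 in WT and 1.09, 0.20, 0.56 and 0.80 in PKR2 hearts, with overlapping groups. WT 2 and WT 3, highest on the brighter probe, were with PKR2 2 the 3 lowest on this one. The mean difference was 0.25 (SE 0.23, 95% interval -0.26 to 0.77, limma adjusted p = 0.9997, exact permutation p = 0.343), opposite in sign to that of the brighter probe. With array position as a covariate, which sets PKR2 hearts against WT 1 alone, both signs turned (0.072 for the brighter probe and -0.072 for this one). Both probes are annotated to the same transcript, and the exon or UTR under each was not looked up on this build.

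The disagreement between the Cav1 probes was measured as the upstream level minus the downstream level on each array, centred on its mean over the 8 arrays. It was 0.47, -0.79, -0.96 and -0.016 in WT and 0.92, 0.45, -0.23 and 0.16 in PKR2 hearts. The values ran over 1.88 log2 units, with WT 3 lowest and PKR2 1 highest, and the groups overlapped. The PKR2 mean lay 0.65 above the WT mean, which did not pass (two-sided exact permutation p = 0.2). The same measure for the pair of brighter Ptrf probes (650 bases apart) ran over 0.86 log2 units, with a group difference of 0.22 (exact permutation p = 0.286).

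**Figure D2:**
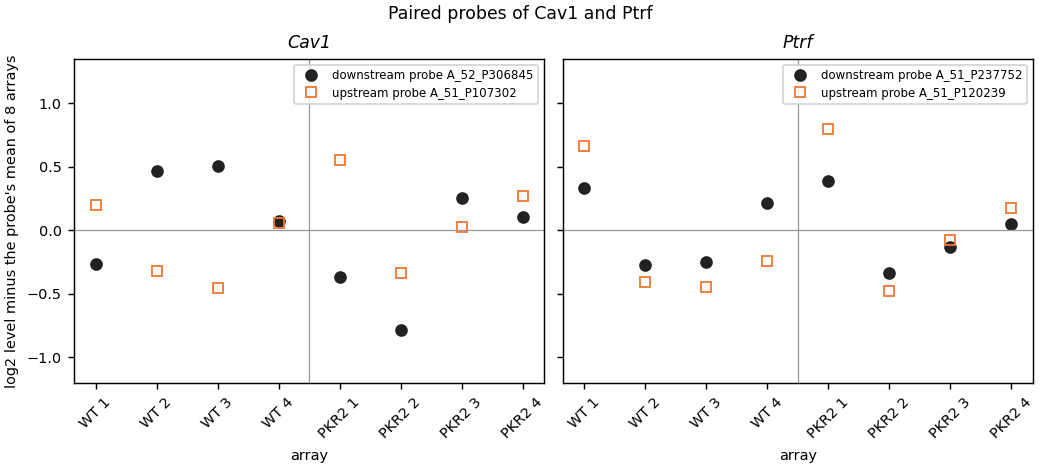
Level of the downstream (filled circles) and upstream (open squares) probe of Cav1 and of Ptrf on every array, each minus its own mean over the 8 arrays (log2). Over the arrays, the gap between the symbols spans 1.88 log2 units for Cav1 and 0.86 for Ptrf.

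Cav2, the partner that forms mixed oligomers with Cav1, was measured on 10 spots per array by probe A_51_P279552 (chr6:17238393-17238452, plus strand, mm8). It read 0.96, 1.66, 1.60 and 1.81 in WT and 0.97, 1.31, 1.52 and 1.56 in PKR2 hearts. The lowest WT and the lowest PKR2 heart were alike at the bottom, and the groups overlapped. Means were 1.51 ± 0.38 and 1.34 ± 0.27, a difference of -0.17 (SE 0.22, 95% interval -0.67 to 0.33, limma adjusted p = 0.9997, exact permutation p = 0.457). The spots of 1 array had an SD between 0.040 and 0.080, smaller than the spread between hearts of either group. Within slides the difference was -0.083 (slide 5) and -0.25 (slide 6). The other Cav2 probe (A_52_P55846), 5768 bases upstream, was not well above background on any array and was not tested.

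Cav3, the caveolin of heart and skeletal muscle fibres, was among the steadiest members. Probe A_51_P255304 (chr6:112438522-112438581, plus strand, mm8) read 4.50, 4.42, 4.40 and 4.72 in WT and 4.70, 4.51, 4.43 and 4.28 in PKR2 hearts. The 8 values lay within 0.44 log2 units, and both extremes, WT 4 and PKR2 4, came from slide 6. The means were 4.51 ± 0.15 and 4.48 ± 0.17, a difference of -0.030 (SE 0.16, 95% interval -0.38 to 0.32, limma adjusted p = 0.9997, exact permutation p = 0.8286). As a ratio, the interval runs from 0.767 to 1.25. Within slides the difference was 0.028 (slide 5) and -0.44 (slide 6).

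Ptrf, the cavin that the caveolar coat cannot form without, had 3 tested probes. The brightest (A_51_P237752, chr11:100772905-100772964, minus strand, mm8) read 6.99, 6.38, 6.41 and 6.87 in WT and 7.04, 6.32, 6.52 and 6.70 in PKR2 hearts. WT 1 and PKR2 1 were highest and WT 2 and PKR2 2 lowest, and each group spanned a like range. The means were 6.66 ± 0.31 and 6.65 ± 0.31, a difference of -0.013 (95% interval -0.49 to 0.47, limma adjusted p = 0.9997, exact permutation p = 0.943). Within slides it was 0.11 (slide 5) and -0.16 (slide 6).

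The Ptrf probe A_51_P120239, 650 bases upstream, read 3.85, 2.78, 2.74 and 2.94 in WT and 3.98, 2.71, 3.11 and 3.36 in PKR2 hearts. Here too WT 1 and PKR2 1 stood apart at the top, and the groups overlapped. Its difference was 0.21 (SE 0.32, 95% interval -0.50 to 0.93, limma adjusted p = 0.9997, exact permutation p = 0.571). The third, A_52_P560022, was well above background on 2 WT and 3 PKR2 arrays, ran from -5.80 (WT 4) to -3.49 (WT 1), and had a mean difference of 0.60 (SE 0.44). It entered the test through PKR2 alone, and this difference is a description. The fourth Ptrf probe, A_52_P457839, lies 13588 bases upstream, was well above background on 1 array and was not tested.

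Sdpr, a cavin that shapes the endothelial caveola, was read by probe A_51_P277336 (chr1:51247352-51247411, plus strand, mm8) at 6.13, 6.62, 6.86 and 6.63 in WT and 6.48, 6.66, 6.47 and 6.60 in PKR2 hearts. The PKR2 hearts lay inside the WT range. Means were 6.56 ± 0.31 and 6.55 ± 0.093, with a difference of -0.0085 (SE 0.18, 95% interval -0.41 to 0.40, limma adjusted p = 0.9997, exact permutation p = 0.943). Within slides it was -0.40 (slide 5) and -0.025 (slide 6).

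Prkcdbp, the cavin first described as a protein kinase C delta binding protein, was read by probe A_51_P180974 (chr7:105354531-105354590, minus strand, mm8) at 2.33, 2.30, 2.17 and 2.69 in WT and 2.42, 2.40, 2.33 and 2.42 in PKR2 hearts. All 4 PKR2 values again lay inside the WT range. Means were 2.37 ± 0.22 and 2.39 ± 0.040, with a difference of 0.019 (SE 0.16, 95% interval -0.33 to 0.37, limma adjusted p = 0.9997, exact permutation p = 0.943). Within slides it was 0.17 (slide 5) and -0.27 (slide 6). The other Prkcdbp probe (A_52_P1164479), placed on the opposite strand, was not well above background on any array and was not tested.

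Plvap was read by probe A_51_P414653 (chr8:74426967-74427026, minus strand, mm8) at 0.94, 0.74, 0.42 and 1.02 in WT and 0.93, 0.72, 0.75 and 0.97 in PKR2 hearts. WT 3 was lowest and WT 4 highest, so the PKR2 values lay inside the WT range. Means were 0.78 ± 0.27 and 0.84 ± 0.13, a difference of 0.061 (SE 0.17, 95% interval -0.33 to 0.45, limma adjusted p = 0.9997, exact permutation p = 0.771). Within slides it was 0.33 (slide 5) and -0.056 (slide 6).

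Aqp1, the water channel of capillary endothelium and red cells, varied most between hearts among the members' brightest probes. Probe A_51_P125205 (chr6:55278064-55278123, plus strand, mm8) read 5.02, 6.20, 6.35 and 5.55 in WT and 4.94, 6.13, 5.25 and 5.31 in PKR2 hearts. WT 2, WT 3 and PKR2 2 were high, WT 1 and PKR2 1 low, and the groups overlapped over nearly their whole range of 1.41 log2 units. Means were 5.78 ± 0.62 and 5.41 ± 0.51, a difference of -0.37 (SE 0.34, 95% interval -1.13 to 0.39, limma adjusted p = 0.9997, exact permutation p = 0.343). It was -1.10 on slide 5 and -0.24 on slide 6, and its sign turned under normexp background correction (0.036) and with array position as a covariate (0.39). The erythroid marker score is relative to the mean of the 8 arrays. It was 0.31, 0.17, -0.28 and -0.35 in WT and -0.28, 1.39, -1.06 and 0.11 in PKR2 hearts. WT 3, highest for Aqp1, thus scored below WT 1, which was among the lowest for Aqp1. The part of this score in the Aqp1 values was not tested.

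Nos3, which makes nitric oxide in the endothelium, had 10 spots per array for probe A_51_P139651 (chr5:23893883-23893942, plus strand, mm8). It read 1.28, 1.06, 0.93 and 1.24 in WT and 1.32, 1.16, 1.23 and 1.36 in PKR2 hearts. PKR2 1 and PKR2 4 were the highest of the 8 and WT 2 and WT 3 the lowest, and the groups overlapped in the middle. Means were 1.13 ± 0.16 and 1.27 ± 0.092, a difference of 0.14 (SE 0.15, 95% interval -0.19 to 0.47, limma adjusted p = 0.9997, exact permutation p = 0.2). As a ratio, the interval runs from 0.877 to 1.39. Spots of 1 array had an SD of 0.042 to 0.097, and the difference within slides was 0.30 (slide 5) and 0.13 (slide 6).

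**Figure D3:**
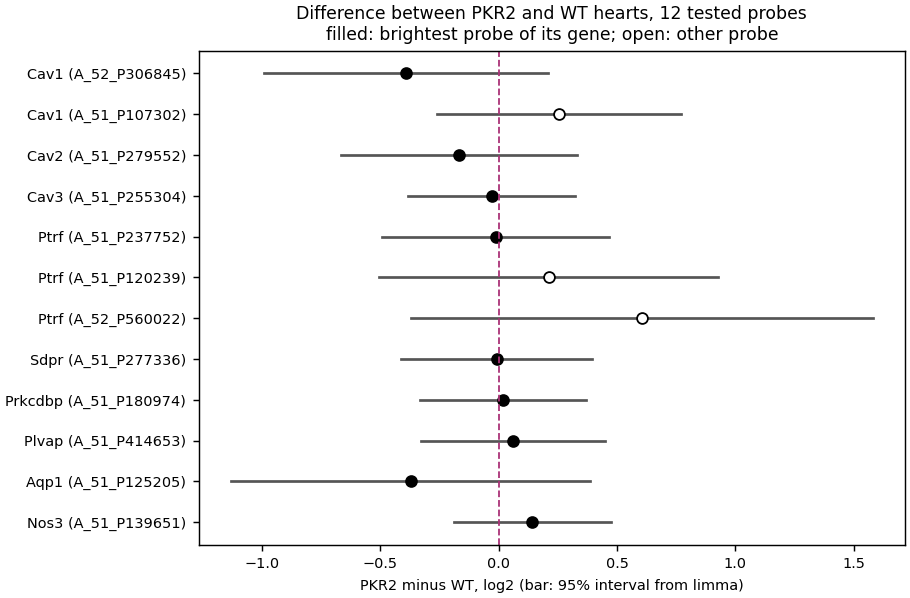
Difference PKR2 minus WT (log2, limma) with its 95% interval for each of the 12 tested member probes. Every interval includes 0, and the Cav1 probes lie on opposite sides of it. Ptrf A_52_P560022 entered the test through PKR2 alone, and its interval is a description.

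Over the brightest probe of each gene, 3 members had a higher and 6 a lower mean in PKR2 hearts, and the median over the 9 was -0.013. Over all 12 tested member probes the split was 6 higher and 6 lower, with a median of 0.0052. This split and median include Ptrf A_52_P560022 among the higher, which entered the test through PKR2 alone and is a description. Under normexp background correction the split of the 9 turned to 8 higher and 1 lower, with a median of 0.21, while the median of all tested probes was -0.12, so the members had no common direction that held across settings. Over the brightest probes of all 15655 features the median was 0.0015. The median SD within groups of the members' 9 brightest probes was 0.23, against 0.31 over those features. For all 12 tested member probes it was 0.32, against 0.31 over all tested probes. The members' 95% intervals reached a median of 0.40 to either side, so smaller differences than that were not resolved for a typical member. These intervals are not adjusted for the number of probes, and the adjusted test is stricter. In the simulated data, drawn with the spread of all tested probes, 62 of 200 probes changed by 1 log2 unit were called. For a change of 2 log2 units it was 169 of 200. Of the unchanged probes, 3 were called in the first run and 9 in the second. The noise was drawn independently for each probe and array, and 200 probes were changed at once. These shares are therefore not the chance of calling a single changed member in these hearts.

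A list of 18 genes of caveolae and membrane traffic held membrane-shaping ATPases, F-BAR proteins, flotillins, kinases and others, among them the clathrin gene Cltc. All 18 were tested, none was called, 12 had a higher and 6 a lower mean, and their median was 0.043. Bin1, which shapes membrane tubules in muscle, had a difference of -0.19 (SE 0.15). Ehd3, an ATPase of endosomal membrane traffic, had -0.32 (SE 0.31). The kinase Fyn had 0.15 (SE 0.15) and Ehd4, from the same ATPase family as Ehd3, 0.16 (SE 0.15). The groups of all 4 overlapped.

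In the nitric oxide pathway, which supplies, holds back or follows Nos3, 20 of 25 genes were tested and none was called. Of these, 12 had a higher and 8 a lower mean (median 0.0069). Gch1, the first enzyme of synthesis of the cofactor tetrahydrobiopterin, read -1.48, -1.21, -1.25 and -1.13 in WT and -1.06, -0.84, -1.07 and -1.10 in PKR2 hearts. All 4 PKR2 hearts stood above all 4 WT hearts, by 0.25 on average (SE 0.15, exact permutation p = 0.0286, the smallest the design allows), with a limma adjusted p of 0.9997. Gch1 was named for the smallest limma p of the 20, so its exact p follows a choice made on the same values. Of all tested probes, 1.83% had groups that did not overlap. Under normexp background correction the difference was -0.16. Prkg1, the cGMP-dependent kinase, differed by 0.32 (SE 0.27) and the chaperone Hsp90ab1 by 0.14 (SE 0.15), each with overlapping groups.

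Of 16 genes of fenestrae and transport across the endothelium, 15 were tested, none was called, 5 had a higher and 10 a lower mean, and the median was -0.033. Mfsd2a, a lipid transporter of the blood-brain barrier, read -1.85, -1.07, -2.46 and -3.07 in WT and -7.02, -3.94, -3.28 and -4.51 in PKR2 hearts. It was well above background on all 4 WT arrays but on 1 PKR2 array, so it entered the test through WT alone and 3 of the PKR2 levels are not measured above background. Every PKR2 level lay below the WT levels, as for 0.77% of all tested probes, and the difference of -2.57 is a description with no test reported. Mfsd2a is still counted among the 15 and the 10 lower, and in the list's median. Its size varied with the processing: it was -0.72 with the authors' deposited values, -1.13 with slide as a fixed block, -1.29 under normexp background correction and -1.34 with the adipocyte score in the fit. Angpt1 (0.46, SE 0.27), Vegfa (0.24, SE 0.17) and Esam (0.23, SE 0.17) overlapped between groups.

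Among the 11 other aquaporins, 6 were tested, none was called, 1 had a higher and 5 a lower mean, and the median was -0.11. Aqp7, a glycerol channel of fat cells, read -0.58, -0.78, -1.05 and -0.36 in WT and -1.11, -1.53, -1.24 and -1.07 in PKR2 hearts, again without overlap. The difference was -0.55 (SE 0.19, exact permutation p = 0.0286, unadjusted limma p = 0.0174 and adjusted p = 0.9997). Aqp7 was named for the smallest limma p of the 6, so these unadjusted p-values follow a choice made on the same values. Adding the adipocyte score to the fit gave -0.36. Aqp5 (-0.65, SE 0.54), Aqp8 (0.19, SE 0.20) and Aqp11 (-0.18, SE 0.21) overlapped between groups.

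Among the marker lists of cell types that a heart sample can hold, the endothelial score was narrow in both groups and the adipocyte score was wide. A list's score on an array averages, over the genes of the list, how far each lies from its own mean of all 8 arrays. The endothelial score (15 of 15 markers tested, 9 with a higher and 6 with a lower mean, median 0.047) ran from -0.11 to 0.14 in WT and from -0.15 to 0.10 in PKR2. Single endothelial markers varied more, over ranges of the 8 arrays from 0.53 log2 units (Vwf) to 1.63 (Cldn5). The narrow score therefore does not mean that each marker was steady. All 15 endothelial and all 13 cardiomyocyte markers were well above background on all 8 arrays, so the defining markers of heart tissue were present. Of the cardiomyocyte markers, 11 had a higher and 2 a lower mean in PKR2 (median 0.090, none called). Their score ran from -0.21 to 0.035 in WT and from -0.091 to 0.24 in PKR2. All 6 tested erythroid markers had a higher mean in PKR2 (median 0.081, none called). The adipocyte score ran from -0.074 to 1.09 in WT and from -1.94 to 0.37 in PKR2. PKR2 3 (0.37) and PKR2 4 (0.21) scored above WT 3 (-0.074), so the groups overlapped. All 11 tested adipocyte markers of 12 listed were lower in mean (median -1.73), and none was called. An unadjusted limma p under 0.05 was reached by 8 of the 11, against 2.58% of all tested probes (1.19% lower in PKR2). The 8 were measured in the same hearts and are not separate evidence of a group difference. The 11 were above background on all 8 arrays, including Adipoq and Plin1. With this score as a covariate the brighter Cav1 probe's difference was -0.060 and that of Aqp1 was -0.66. The difference of the other Cav1 probe kept its sign there. The score itself differed by group, with a mean of 0.75 in WT and -0.75 in PKR2. A fit that includes it therefore separates score from group only in part, and its part in the members' values was not tested. The mesothelial score (7 of 7 markers lower in mean) ran from 0.035 to 0.23 in WT and from -0.47 to 0.21 in PKR2, and its part in the members' values was not tested.

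**Figure D4:**
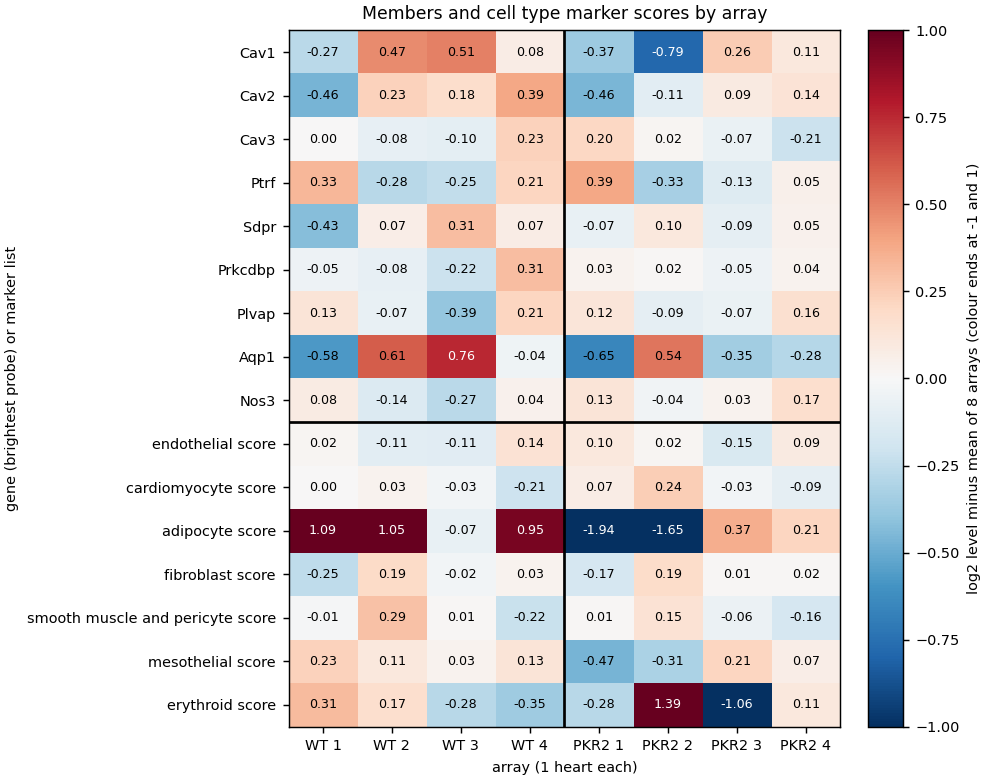
Level of each member's brightest probe minus its mean over the 8 arrays, and marker scores, in log2, as colour and printed value for each array (WT left, PKR2 right of the line). Aqp1 is high in WT 2, WT 3 and PKR2 2, and the adipocyte score is lowest in PKR2 1 (-1.94) and PKR2 2 (-1.65).

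The genes most like a member across the 8 arrays were picked for their Pearson r and are a description with no test. Cav1 was closest to Cped1 (r = 0.965), Olfr549 (0.931) and Dlk2 (0.917). For Cav3 these were Cd320 (0.965), Acy3 (0.965) and Nsrp1 (0.955), and for Plvap Ptpn9 (0.971), Zfp94 (0.970) and Ncbp1 (0.952). For Aqp1 they were Dhcr7 (0.994), Stx12 (0.992) and Cox7a2 (0.992). Among 14003 named genes, r exceeded 0.9 for 998 with Aqp1, 32 with Plvap, 29 with Cav3 and 3 with Cav1. All points share the 8 arrays and their normalization.

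The arrays differed widely in brightness. WT 2, WT 4 and PKR2 4 were the dimmest and had a single scan range by their saturation value, and the other arrays had an extended one. The 75th percentile of processed signal ran from 40.9 (WT 2) to 770 (PKR2 1), and 48.3% to 67.1% of spots were well above background. Across probes, Pearson's r between arrays was 0.968 to 0.986 for WT pairs, 0.970 to 0.991 for PKR2 pairs and 0.963 to 0.988 for mixed pairs. Position 4 of a slide held every PKR2 array and, of the WT arrays, WT 1, so group and position can be told apart through WT 1 alone. No member probe was saturated on any array.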

How the data were processed

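Tri-Reagent RNA of each heart was labelled with Cy3, per the labels' protocols, and each array was treated as 1 mouse. Groups come from the labels' genotype. Per the file headers, Agilent Feature Extraction 9.5.1.1 made the scanner files, whose processed signal is spot intensity on a linear scale, background-subtracted and not normalized between arrays, with probe positions on build mm8. The authors' deposited table holds linear, uncentred intensity (column medians 139 to 144) by an unstated normalization and served as an alternative.

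Here log2 processed signal minus each array's 75th percentile was taken, control and outlier-flagged spots were left out and spots of a probe averaged. Testing required that a probe be well above background on 3 or more arrays of 1 group (of 4), which left 22715 of 41174 probes, and 97 detected probes were left out for flags. The comparison used limma 3.58.1 under R 4.3.3 (lmFit, eBayes, no covariate, Benjamini-Hochberg over all tested probes at 0.05), checked on simulated data. Exact permutation tests were two-sided over 70 relabelings, with 0.0286 as the smallest possible p. Probes outside the members were named through RefSeq accessions (24367 probes), then symbols or synonyms (8732), while 1791 kept the file's name and 6284 had none. The 8 arrays lay on 6 slides, of which slides 5 and 6 held both groups.

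The members, the gene lists and the tests were chosen with earlier results of these data known. Named genes are all members, Prokr2, the 4 genes of smallest limma p in each pathway list, and the 3 named genes most correlated with Cav1, Cav3, Plvap and Aqp1, predicted genes skipped. A gene that this rule names is not reported here. Alternatives changed the background correction, the normalization, the values' source, the filter, the probe rule, slide, array position, scan range, variance model, the adipocyte score as a covariate, or left out 1 array.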

Additional observations from a re-analysis of the deposited data

How the results depend on the processing

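No member was called under any alternative run. The count of all probes called was 1 with probes well above background on all 8 arrays, with slide as a random block and with trended robust variance, 5 with array position as a covariate, and 0 to 1 when leaving out 1 array (1 without PKR2 replicate 3). The members' median was 0.21 under normexp and -0.16 within slide 6 (1 pair), and -0.067 to 0.042 when leaving out 1 array. The sign of several single differences turned, and the cause was not tested. Under normexp these were Cav2 0.055, Cav3 0.39, Ptrf A_51_P237752 0.30 and A_52_P560022 -0.75, Sdpr 0.52, Aqp1 0.036, Fyn -0.23, Bin1 0.10, Gch1 -0.16, Prkg1 -0.051 and Angpt1 -0.17, where the median of all tested probes moved from 0.019 to -0.12. Under quantile normalization they were Cav3 0.012, Ptrf 0.063 and Sdpr 0.037, and with the median in place of the 75th percentile Prkcdbp -0.042 and Plvap -0.00052. With the authors' deposited values they were Cav3 0.018, Ptrf A_52_P560022 -0.014, Sdpr 0.13, Prkcdbp -0.075 and Plvap -0.089. With slide as a random block Prkcdbp was -0.0057, with slide fixed Prkcdbp was -0.052 and Aqp5 0.49, and without slide 6 Cav3 was 0.11 and Ptrf 0.037. With array position as a covariate, which rests on WT 1 alone, they were Cav1 A_52_P306845 0.072 and A_51_P107302 -0.072, Cav2 0.38, Ptrf A_51_P120239 -0.56 and A_52_P560022 -0.36, Sdpr 0.42, Plvap -0.097, Aqp1 0.39, Nos3 -0.010, Ehd3 0.32, Hsp90ab1 -0.041, Prkg1 -0.45, Angpt1 -0.13 and Aqp11 0.18. With scan range as a block Sdpr was 0.017, with array weights Ptrf was 0.10 and Aqp5 0.31, and with the adipocyte score Cav2 was 0.036 and Aqp5 0.58. Leaving out 1 array gave -0.55 to -0.20 for Cav1 A_52_P306845, 0.11 to 0.41 for Cav1 A_51_P107302, -0.35 to -0.045 for Cav2, -0.63 to -0.18 for Aqp1, 0.077 to 0.19 for Nos3, 0.15 to 0.92 for Ptrf A_52_P560022, -0.10 to 0.042 for Cav3, -0.14 to 0.097 for Ptrf A_51_P237752, -0.019 to 0.47 for Ptrf A_51_P120239, -0.15 to 0.092 for Sdpr, -0.050 to 0.12 for Prkcdbp and -0.059 to 0.14 for Plvap. No fit paired by replicate number was made, since the labels carry no such numbers and replicates here are numbered in accession order. Slide, which pairs 1 WT with 1 PKR2 array on slides 5 and 6, was used as a block as given above. The number of arrays limits the precision, and on WT 2, the dimmest array, 48.3% of spots were well above background.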

Other observations

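The largest axis of variation over all tested probes held 36.5% of the variance and the next 24.5%. Scores on the first were -46.3, 39.2, 38.9 and -10.8 in WT and -47.7, 45.1, -2.50 and -16.0 in PKR2 hearts, so it did not separate the groups. The 3 arrays highest on it (PKR2 2, WT 2 and WT 3) were also the 3 highest for Aqp1 and the 3 lowest for the brightest Ptrf probe. PKR2 1 and WT 1, lowest on it, were the lowest for Aqp1 and the highest for Ptrf. The scores were computed over probes that include both genes, and the order is given as a description.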
